A study of Mus musculus with 2 samples.

Results

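Cones of *Pde6c*.GFP mice were compared within 1 library of uninjected retinae at PN24, by the share of each cell's counts that came from the mitochondrial genome. The share was the percent of a cell's counts on genes with symbols starting mt-, and cells with 1% or more were set against cells below 1% across all nuclear genes. The groups were thus chosen by measured values, the counts of the mitochondrial genes. Of the 151 cells deposited for the series, 85 were uninjected, and 43 of these had 1% or more and 42 had less. After the filter of the study, which removed cells with fewer than 200 genes or over 5% mitochondrial counts, 82 uninjected cells were left, 40 with 1% or more and 42 below 1%. The 3 cells removed had 5.65%, 6.86% and 8.55% mitochondrial counts, so the deposited cells include some that the stated filter of the study takes out, and the study analysed all of those deposited as uninjected.

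The mice were C57BL/6 animals of the Pde6c cpfl1 line, which carries a mutation of the cone phosphodiesterase and loses its cones, crossed with Chrnb4.eGFP, in which the *Chrnb4* promoter drives GFP in cones. Retinae were dissociated with papain and GFP-positive cells were sorted into a 96-well plate, 1 cell to a well. The second library of the series, from mice given an intravitreal injection of 10 µM GSK-J4 at PN14, carried the same mutation and the same GFP transgene and is used here only for its mitochondrial shares. The sources used here give no number of animals, so cells of 1 animal cannot be told from cells of several, and the cells of 1 library are not replicates. For this reason no difference below has a test, and the intervals cover counting error only.

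Cone inner segments are packed with mitochondria, which supply the energy for phototransduction and for the ion pumps that keep the cell polarized. The mitochondrial genome encodes 13 proteins, all of them subunits of respiratory complexes I, III, IV and V, while the other subunits of these complexes, complex II and the mitochondrial ribosomal proteins are encoded in the nucleus, translated in the cytosol and imported. A high share of mitochondrial RNA in a single cell is also widely used as a sign of a damaged cell, because cytosolic RNA can leak out while mitochondria stay. The deposited table held the 13 protein genes and no mitochondrial rRNA or tRNA.

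The values that set the groups are a description and support nothing further. The mitochondrial share had a median of 1.67% in the cells with 1% or more, from 1.03% to 4.52%, and a median of 0.560% in the cells below 1%, from 0.106% to 0.965%. The 3 cells just inside the limit had 1.03%, 1.06% and 1.06%, and the 3 just outside had 0.965%, 0.933% and 0.924%. For 8 of the cells with 1% or more and 10 of the cells below 1%, the 95% Clopper-Pearson interval of the share reached across 1%, so that these 18 cells could not be placed with certainty at their depth.

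The groups differed in mitochondrial counts, while their medians of nuclear counts were close. Nuclear counts per cell had a median of 8266.5 in the cells with 1% or more (860 to 74296) and 7924 in the cells below 1% (855 to 97785). The cells with 1% or more were shallower at both quartiles, at 2717 and 11573 against 4402.5 and 22692. Mitochondrial counts per cell had medians of 148 (12 to 1232) and 34.5 (6 to 656). Across the 82 cells, the share had a Spearman correlation of -0.16 with nuclear counts and 0.43 with mitochondrial counts, each of which enters the share itself. The cells with 1% or more held somewhat fewer genes, with a median of 1730.5 against 1930.5. The side of the plate moved with the share. In plate columns 1 to 6, 23 of 39 cells had 1% or more (59.0%, 95% Clopper-Pearson interval 42.1% to 74.4%), and in columns 7 to 12 it was 17 of 43 (39.5%, 25% to 55.6%). These intervals overlap, and values within each side are given below for the main lists and for some of the genes.

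**Figure D1:**
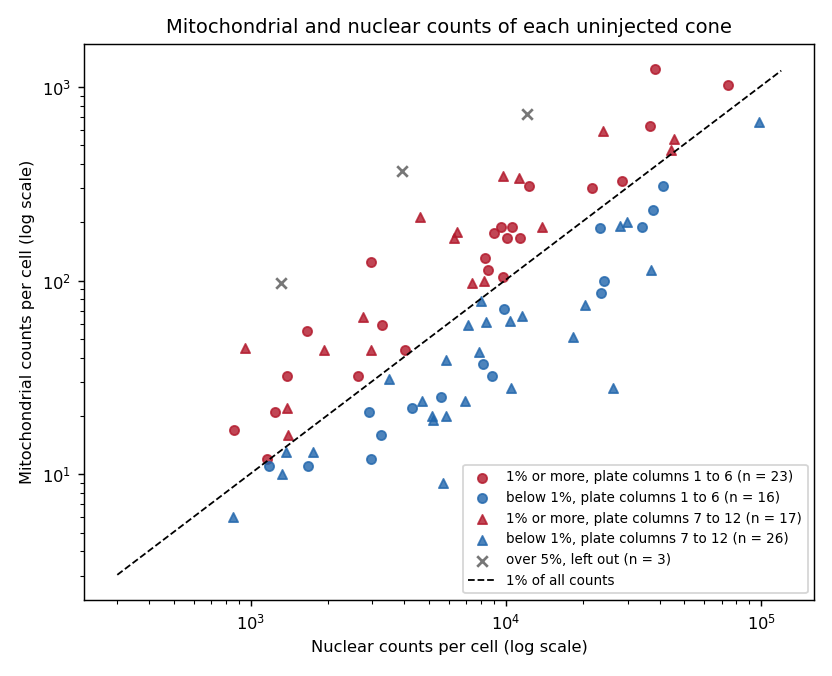
Mitochondrial counts against nuclear counts of each deposited uninjected cone, both on log scales, with cells coloured by group, marked by plate side, and crosses for the 3 cells over 5%. The groups cover the same range of nuclear counts (860 to 74296 and 855 to 97785) and are split by the dashed line at 1% of all counts.

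The cells of both groups carried cone transcripts. Markers of cones took a median of 2.71% of the nuclear counts of a cell with 1% or more and 1.31% of a cell below 1%. *Gngt2*, the cone transducin gamma subunit, *Pde6h*, the inhibitory subunit of the cone phosphodiesterase, and *Opn1mw*, the medium-wavelength opsin, had a count in every cell of both groups, and *Arr3*, cone arrestin, had one in 95% of the cells with 1% or more and in every cell below 1%. The rod gene *Pde6g* also had a count in 97.5% of the cells with 1% or more and 100% of those below 1%. Detection alone therefore does not mark a cone. The log-fold and the calls used here are defined in the next paragraph. Of 14 rod markers 13 were tested, and 5 (*Pde6g*, *Sag*, *Rp1*, *Gngt1* and *Prph2*) were beyond 0.3 log-fold upwards, 0 downwards. Among all tested genes 16.4% were higher and 12.4% lower. The rod markers together took a median of 0.632% (0.122% to 7.83%) and 0.303% (0.0610% to 1.81%) of the nuclear counts, with 0.617% and 0.430% in columns 1 to 6 and 0.700% and 0.244% in columns 7 to 12. Müller glia markers had cell medians of 0.0454% and 0.0577%, while their summed counts came to 0.207% and 0.0484%, and 1 cell with 1% or more reached 4.21%. Of 9 tested, 6 were higher and 0 lower, and 1 gene, *Apoe*, was held, beside 3.62% of all tested genes held upwards. Microglia and erythrocyte markers had 2 and 1 counts in all the cells with 1% or more. The part of rod and Müller glia transcripts in the differences below was not tested.

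Levels are given per 10000 nuclear counts of a cell, so that the mitochondrial counts that made the groups do not enter the scale. A log-fold takes natural logs of the mean level plus 1 and subtracts the value of the cells below 1% from that of the cells with 1% or more, and a gene was called higher or lower beyond 0.3. As each level is a part of a fixed total, some genes must be lower where others are higher. A gene was tested where 10% or more of the cells of a group had a count, which 8487 nuclear genes met. Of these 2444 (28.8%) were beyond 0.3, with 1390 higher (16.4%) and 1054 lower (12.4%), and the median log-fold was -0.020. Within each plate side 768 genes (9.05%) passed in the same direction, 416 upwards (4.9%) and 352 downwards (4.15%). A stricter count also left out, for each gene, its highest cell in each group. By this count, over all cells, within each side and without the highest cells, 593 genes (6.99%) passed, 307 higher (3.62%) and 286 lower (3.37%). Genes that met all of these are called held below, and the 3.62% and 3.37% are the background for the lists. This background is not matched for level. The 1 added to each mean keeps genes of low level within 0.3, so lists of abundant genes can pass more readily. With 0.1 added instead, 2925 of the 8487 were higher and 3332 lower.

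Sequence of 5 promoters is shown for members of 3 lists in which many genes were called together, the nuclear genes of the respiratory chain, the cytosolic ribosomal proteins and cone phototransduction. Each is the RefSeq sequence on GRCm38.p6 from 250 bases before the start of the gene to 30 after it, read on the strand of the gene. They belong to *Cox8a* (chr19:7217587-7217866, minus strand), a subunit of complex IV, *Rpl41* (chr10:128549139-128549418, minus strand), a protein of the large ribosomal subunit, *Guca1a* (chr17:47400577-47400856, minus strand), the activator of retinal guanylate cyclase, *Gnat2* (chr3:108092816-108093095, plus strand), the cone transducin alpha subunit, and *Pde6h* (chr6:136954273-136954552, plus strand). All 5 were higher and held. Capitals mark a core of ETS factors, CCGGAAG, in the first 2 and a core of the photoreceptor factor CRX, TAATCC, in the next 2, each on either strand, and *Pde6h* held neither.
Cox8a: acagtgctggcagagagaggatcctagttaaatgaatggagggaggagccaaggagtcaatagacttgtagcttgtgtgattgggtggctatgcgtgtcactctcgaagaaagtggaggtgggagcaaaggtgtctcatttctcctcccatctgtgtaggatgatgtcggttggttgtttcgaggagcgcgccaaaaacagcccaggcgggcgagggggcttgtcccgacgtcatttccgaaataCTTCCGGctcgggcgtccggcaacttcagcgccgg
Rpl41: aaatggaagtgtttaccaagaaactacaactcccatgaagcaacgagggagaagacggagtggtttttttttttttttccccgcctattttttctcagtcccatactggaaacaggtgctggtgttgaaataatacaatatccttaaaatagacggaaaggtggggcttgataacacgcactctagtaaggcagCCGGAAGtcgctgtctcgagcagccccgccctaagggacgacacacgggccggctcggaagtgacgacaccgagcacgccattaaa
Guca1a: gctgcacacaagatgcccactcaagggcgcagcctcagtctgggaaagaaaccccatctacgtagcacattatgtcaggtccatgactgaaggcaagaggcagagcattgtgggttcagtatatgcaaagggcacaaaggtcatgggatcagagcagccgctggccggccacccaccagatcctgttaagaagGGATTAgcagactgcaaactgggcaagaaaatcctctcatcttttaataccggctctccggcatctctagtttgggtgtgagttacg
Gnat2: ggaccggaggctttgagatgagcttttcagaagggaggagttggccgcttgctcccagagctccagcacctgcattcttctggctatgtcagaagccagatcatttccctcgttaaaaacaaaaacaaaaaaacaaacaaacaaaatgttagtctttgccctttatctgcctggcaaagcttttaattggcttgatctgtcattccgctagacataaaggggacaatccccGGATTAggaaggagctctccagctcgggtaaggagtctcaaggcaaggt
Pde6h: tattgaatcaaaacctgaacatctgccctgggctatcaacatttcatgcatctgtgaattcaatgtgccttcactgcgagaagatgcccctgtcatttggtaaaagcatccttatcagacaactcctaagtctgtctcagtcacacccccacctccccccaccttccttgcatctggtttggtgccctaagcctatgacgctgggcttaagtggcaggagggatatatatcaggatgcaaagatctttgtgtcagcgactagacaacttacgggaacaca

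Over windows of this length, CCGGAAG was found on either strand in 8.70% of all 27025 promoters of the table and in 16.4% of the 6540 tested genes that had one. It was found in 24 of the 62 matched promoters of cytosolic ribosomal protein genes (38.7%), 15 of the 65 matched promoters of respiratory chain genes (23.1%) and 0 of 15 of cone phototransduction. TAATCC was found in 6.86% of all promoters, 6.04% of those of tested genes and 5 of the 15 of cone phototransduction (33.3%). The motif of NRF1 stood in 0.914% of all promoters, 1.93% of those of tested genes and 4 of the 65 of the respiratory chain (6.15%). The motif of YY1 stood in 0.451% of all promoters, 1.04% of those of tested genes and 0 of the 65. No motif of these 4 holds another, and a match describes the letters only.

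Nuclear genes of respiratory complexes I to V were mostly higher in the cells with 1% or more. Of 78 tested, 43 were higher and 2 were lower, 20 were held upwards and 1 downwards, and the median log-fold was 0.33, beside -0.020 over all tested genes. Of all tested genes 16.4% were higher, 12.4% lower, 3.62% held upwards and 3.37% held downwards. Together they took a median of 4.60% of the nuclear counts in cells with 1% or more (1.90% to 12.6%) and 2.47% in cells below 1% (0.564% to 6.44%). The groups overlapped, and 7 of the 42 cells below 1% lay above the median of the other group. The Spearman correlation of this share with the mitochondrial share over the 82 cells was 0.49, with 0.32 in columns 1 to 6 and 0.60 in columns 7 to 12, and 0.53 over the 74 cells that could be thinned to 1387 nuclear counts. These points share a library and, on each cell, a depth.

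The complexes differed in how many members were called. Complex I, the NADH dehydrogenase, had 20 of 37 higher and 1 lower, with 7 held, and a median log-fold of 0.31. These counts include *Ndufa4*, 1 of the 7 held, which is assembled with complex IV but was not counted there. Complex V, the ATP synthase, had 10 of 16 higher and 0 lower, with 7 held, and a median of 0.39. Complex IV, cytochrome c oxidase, had 7 of 13 higher and 0 lower, with 3 held, and a median of 0.34. Complex III had 4 of 9 higher and 1 lower, with 3 held upwards and 1 downwards. Complex II, which has no subunit encoded in mitochondria, had 3 members tested, 2 higher and 0 held, and the whole complex had too few counts to be read, at 0.0224% and 0.0165% of the summed nuclear counts.

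*Cox8a* had a level in every cell, with a median of 8.55 per 10000 (0.998 to 64.9) in the cells with 1% or more and 3.52 (0.381 to 24.5) in the cells below 1%. The middle 50% of the cells ran from 5.14 to 16.1 against 1.93 to 7.02, and overlapped in part. Its log-fold was 0.87, with 0.84 and 0.96 within the plate sides, from summed counts of 573 and 286. *Ndufa4*, which is assembled with complex IV although it was first described in complex I, had medians of 11.1 (0 to 145) and 6.80 (0 to 39.5) and a log-fold of 0.84. For other members the mean moved without the typical cell. *Atp5g1*, the membrane ring subunit of ATP synthase, had a log-fold of 0.82 while its medians were 1.52 (0 to 82.4) and 1.59 (0 to 40.6), so that its upper cells, and not its median cell, were higher. *Ndufa12*, an accessory subunit of complex I, did the same, with a log-fold of 0.90 and medians of 4.84 and 4.91. *Atp5h*, in the stalk of ATP synthase, had a log-fold of 0.72 and medians of 2.38 and 2.17.

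Some members did not follow the list. *Ndufa2*, a complex I subunit and 1 of the 4 highest in level, had a log-fold of -0.11, with -0.45 and 0.16 within the sides. *Uqcrfs1*, the Rieske iron-sulphur protein of complex III, was the 1 member held downwards, with a mean of 1.20 against 2.95 and a log-fold of -0.59. *Cox6c*, a complex IV subunit, had a log-fold of 0.45 over all cells and 0.28 in columns 7 to 12. *Atp5b*, the catalytic beta subunit, had a log-fold of 0.55 that came to 0.20 without its highest cell in each group.

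Other mitochondrial gene lists had fewer held members, apart from mitochondrial import. Over all tested genes 16.4% were higher and 12.4% lower. Of 67 tested mitochondrial ribosomal proteins, 21 were higher and 10 lower, and 4 were held upwards (5.97%) and 2 downwards. The tricarboxylic acid cycle had 4 of 13 higher with 1 held, *Idh3a*, and a median log-fold of 0.0062. Of 21 tested genes of mitochondrial import, 6 were higher and 3 lower, with *Pam16*, *Timm13*, *Timm17b* and *Tomm40*, parts of the inner and outer membrane translocases, held upwards (19.0%). Fission, fusion and mitophagy genes had 8 of 18 higher and 0 held, and chaperones and proteases of mitochondria 2 of 7 with 0 held. Maintenance of mitochondrial DNA and RNA had 3 of 9 higher and 1 lower, with 0 held upwards and *Twnk*, the mitochondrial helicase, held downwards, and *Tfam*, which packages and transcribes mitochondrial DNA, had a log-fold of 0.19 from 9 and 11 counts. Regulators of mitochondrial biogenesis had 0 of 10 higher, 1 lower and a median of -0.18. *Sirt1*, a deacetylase, was the lower one, from 6 and 22 counts. *Nrf1*, a transcription factor of nuclear respiratory genes, had a log-fold of -0.24 from 9 and 71 counts, and *Ppargc1a*, the coactivator PGC-1α, fell under the detection filter with 2 and 8 counts. The regulators together had 67 counts in the cells with 1% or more and 247 in the cells below 1%, a ratio of shares of 0.326 (95% interval 0.245 to 0.428, counting error only). Over single cells their median shares were closer, at 0.0086% and 0.0155%. The Spearman correlation of this share with the mitochondrial share was -0.32, and -0.12 after thinning. Their median log-fold was -0.012 in columns 1 to 6 and -0.22 in columns 7 to 12.

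Cytosolic ribosomal proteins, which make up the ribosomes that translate nuclear genes, moved with the mitochondrial share in both plate sides. Of 81 tested, 49 were higher, 3 were lower, 26 were held upwards (32.1%) and 0 downwards, with a median log-fold of 0.39. Of all tested genes 16.4% were higher, 12.4% lower and 3.62% held upwards. Their share of the nuclear counts had a median of 5.36% (1.15% to 10.4%) in cells with 1% or more and 2.33% (0.774% to 9.68%) in cells below 1%. Only 4 of the 42 cells below 1% lay above the median of the other group, and 3 of the 40 cells with 1% or more lay below the median of the cells below 1%. The Spearman correlation with the mitochondrial share was 0.60, with 0.56 and 0.63 within the plate sides and 0.65 after thinning.

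For most of the ribosomal protein genes named here the median cell moved with the mean. *Rpl41* had a median of 36 per 10000 (0 to 189) against 17.9 (3.55 to 122), and a log-fold of 0.52 with 0.47 and 0.62 within the sides. *Rps15a* had medians of 4.21 (0 to 76.1) and 1.08 (0 to 30.7) and the log-fold was 1.36. The medians of *Rpl8* were 9.32 (0 to 145) and 5.27 (0 to 90.1), at a log-fold of 0.85. *Rps15*, also 1 of the 4 highest in level, had a log-fold of 0.91 over all cells but 0.041 in columns 7 to 12, and its medians were 4.68 and 5.19. Reads of ribosomal protein genes can be shared with processed pseudogenes, and how such reads were counted is not given in the sources used here.

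**Figure D2:**
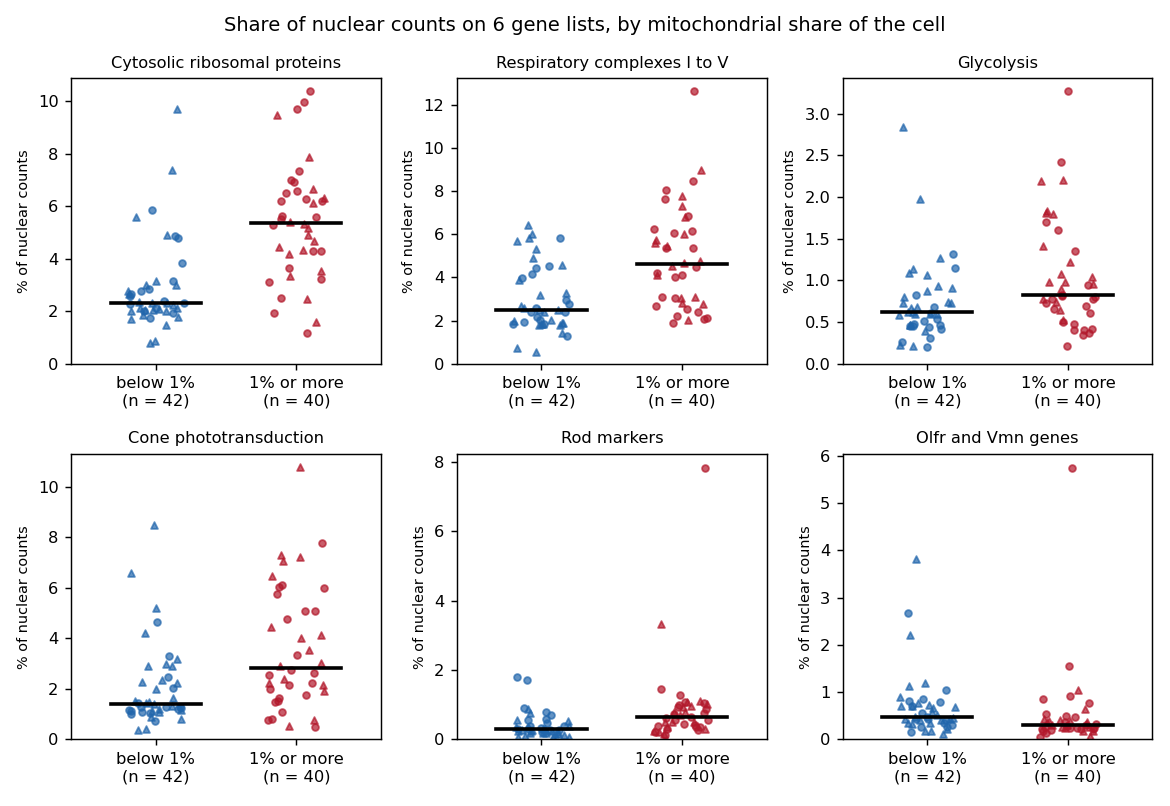
Share of nuclear counts (percent) on 6 gene lists in each uninjected cone, for cells below 1% (n = 42, blue) and with 1% or more (n = 40, red) mitochondrial counts, with circles for plate columns 1 to 6, triangles for columns 7 to 12 and bars at the medians. Medians are 2.33% and 5.36% for cytosolic ribosomal proteins and 2.47% and 4.60% for respiratory complexes I to V, with overlap of single cells in every panel.

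Genes of cone phototransduction were also higher as a group, with more spread between members. Of 20 tested, 12 were higher and 4 lower, and 5 (*Gnat2*, *Gngt2*, *Guca1a*, *Pdc* and *Pde6h*) were held upwards and 0 downwards. The shares over all tested genes were 16.4% higher, 12.4% lower and 3.62% held upwards. The median log-fold was 0.43, with 0.53 and 0.22 within the plate sides, and it was -0.10 when the limit between the groups was set at 2%. Their share of nuclear counts had a median of 2.83% (0.480% to 10.8%) against 1.41% (0.381% to 8.48%), and 10 of the 42 cells below 1% lay above the median of the other group. The Spearman correlation with the mitochondrial share was 0.39, and 0.36 and 0.45 within the sides.

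*Pde6h* had a mean of 42 and a median of 7.81 per 10000 (0.679 to 366) in the cells with 1% or more, and a mean of 9.63 and a median of 1.86 (0.242 to 181) in the cells below 1%. Its log-fold was 1.40, with 2.03 and 1.17 within the sides, from 1311 and 317 counts. *Gngt2* had medians of 68.9 (8.68 to 362) and 33.8 (7.54 to 206) and a log-fold of 0.58, with 0.57 and 0.63 within the sides. In both genes the group ranges overlapped nearly throughout while the medians were apart. *Guca1a* had medians of 46.9 (0 to 295) and 27.0 (0 to 130), and a log-fold of 0.71. *Gnat2* had medians of 3.24 (0 to 34.6) and 2.19 (0 to 15.8), and a log-fold of 0.48. *Pdc*, phosducin, which binds transducin beta and gamma subunits, had medians of 7.55 and 3.91 and a log-fold of 0.44.

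The cone opsins differed from each other. *Opn1mw* had medians of 8.09 (0.135 to 315) and 1.78 (0.102 to 414), and its log-fold was 0.45, with 1.32 in columns 1 to 6 and 0.22 in columns 7 to 12. *Opn1sw*, the short-wavelength opsin, had medians of 20.8 (0 to 284) and 32.3 (5.74 to 290), so that the median was lower in the cells with 1% or more while the means were 64.7 and 52.3 and the log-fold was 0.21. Its Spearman correlation with the mitochondrial share was -0.11, beside 0.43 for *Opn1mw*. *Pde6c*, the gene that carries the cpfl1 mutation and encodes the catalytic subunit of the cone phosphodiesterase, had a log-fold of -0.38, with 0.20 and -0.53 within the sides, from 31 and 38 counts. Of its level below 1%, 79.7% came from 1 cell, and the value was 0.043 without the highest cells. *Cnga3* and *Cngb3*, the subunits of the cone cyclic nucleotide-gated channel, had log-folds of -0.42 and 0.63, and neither was held. The photoreceptor transcription factors had 5 of 14 higher, 0 lower and 1 held, *Crx*, with a log-fold of 0.75 from 67 and 55 counts and a median of 0 in both groups. The median log-fold of these factors was 0.096, and -0.023 without the highest cells. Beside this list and the next, 16.4% of all tested genes were higher, 12.4% lower, 3.62% held upwards and 3.37% held downwards. Outer segment structure had 7 of 15 higher, with *Rp1* and *Rp1l1*, proteins of the photoreceptor axoneme, held, and 1 lower, which was also held, *Abca4*, the retinoid transporter of the outer segment, with medians of 6.89 and 12.7 and a log-fold of -0.53.

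Glycolysis, on which photoreceptors rely heavily, had 8 of 19 genes higher and 2 lower, with *Aldoa*, *Eno1*, *Gapdh*, *Pgam1* and *Pgk1* held upwards and *Ldhb*, a lactate dehydrogenase subunit, downwards. The shares over all tested genes were 16.4% higher, 12.4% lower, 3.62% held upwards and 3.37% held downwards. *Gapdh* had a median of 4.99 per 10000 (0 to 21.7) against 2.66 (0.381 to 12.5), a log-fold of 0.58 and a Spearman correlation of 0.50 with the mitochondrial share. *Aldoa*, an aldolase with the highest level of the list, had medians of 22.5 (0 to 293) and 17.1 (0 to 183) and a log-fold of 0.38. *Pkm*, pyruvate kinase, had a log-fold of 0.056, and *Ldhb* one of -0.48 from 12 and 27 counts. The list took a median of 0.819% and 0.616% of the nuclear counts, with 0.734% and 0.470% in columns 1 to 6 and 1.04% and 0.704% in columns 7 to 12.

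Stress and death genes were called in both directions. Over all tested genes 16.4% were higher and 12.4% lower. In the stress response, heat shock and ribbon synapse lists the higher genes were no larger a part than over all genes. Genes of the integrated stress and unfolded protein response had 2 of 16 higher, 1 lower and 0 held, with a median log-fold of 0.034 and a Spearman correlation of their share with the mitochondrial share of -0.0047. *Atf4*, the central factor of this response, had a log-fold of 0.56 over all cells, 0.71 in columns 1 to 6 and -0.074 in columns 7 to 12, and medians of 0.957 and 1.30. *Ddit3*, which encodes CHOP, had one of 0.21 from 49 and 58 counts. Apoptosis genes had 3 of 14 higher and 3 lower, with *Bad*, a pro-apoptotic BCL2 family member, and *Vdac1*, a channel of the outer mitochondrial membrane, held downwards at -0.97 and -0.71. Heat shock proteins had 1 of 10 higher and 1 lower, *Hsp90ab1*, a cytosolic chaperone, which was held at -0.70. Immediate early genes had 5 of 16 higher and 1 lower, and *Fos* was held upwards at 0.61 from 108 and 16 counts. Antioxidant enzymes had 6 of 14 higher and 1 lower, with *Prdx2* held at 0.62 (-0.20 on summed counts), and the proteasome 13 of 31 higher and 2 lower, with *Psma1* and *Psma2* held. The ribbon synapse list had 3 of 19 higher with *Syt1* held at 0.75. Nuclear-retained long noncoding RNAs had 6 of 10 higher and 2 lower, with a median of 0.46 over all cells that was 0.32 and 0.00029 within the sides and -0.43 with the limit at 2%. *Malat1* among them had medians of 6.39 and 1.58 and log-folds of 1.67 and 0.28 within the sides.

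Olfactory and vomeronasal receptor genes, which cones are not known to use, served as a measure of background. As a share of nuclear counts they were lower in the median cell with 1% or more. Their share had a median of 0.305% of nuclear counts in cells with 1% or more (0.0530% to 5.75%) and 0.480% in cells below 1% (0.115% to 3.81%), and the Spearman correlation with the mitochondrial share was -0.34, with -0.31 and -0.40 within the plate sides. Of 510 deposited, 86 were tested, and 4 were higher and 8 lower, both smaller parts than the 16.4% and 12.4% of all tested genes. The 1 added to each mean keeps genes of low level within 0.3, so these smaller parts may reflect low level. Their median log-fold was -0.044, beside -0.020 over all tested genes. With a pseudocount of 0.1 these were -0.21 and -0.076. This background moved with the groups beside every list above, and its part in the results was not tested.

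**Figure D3:**
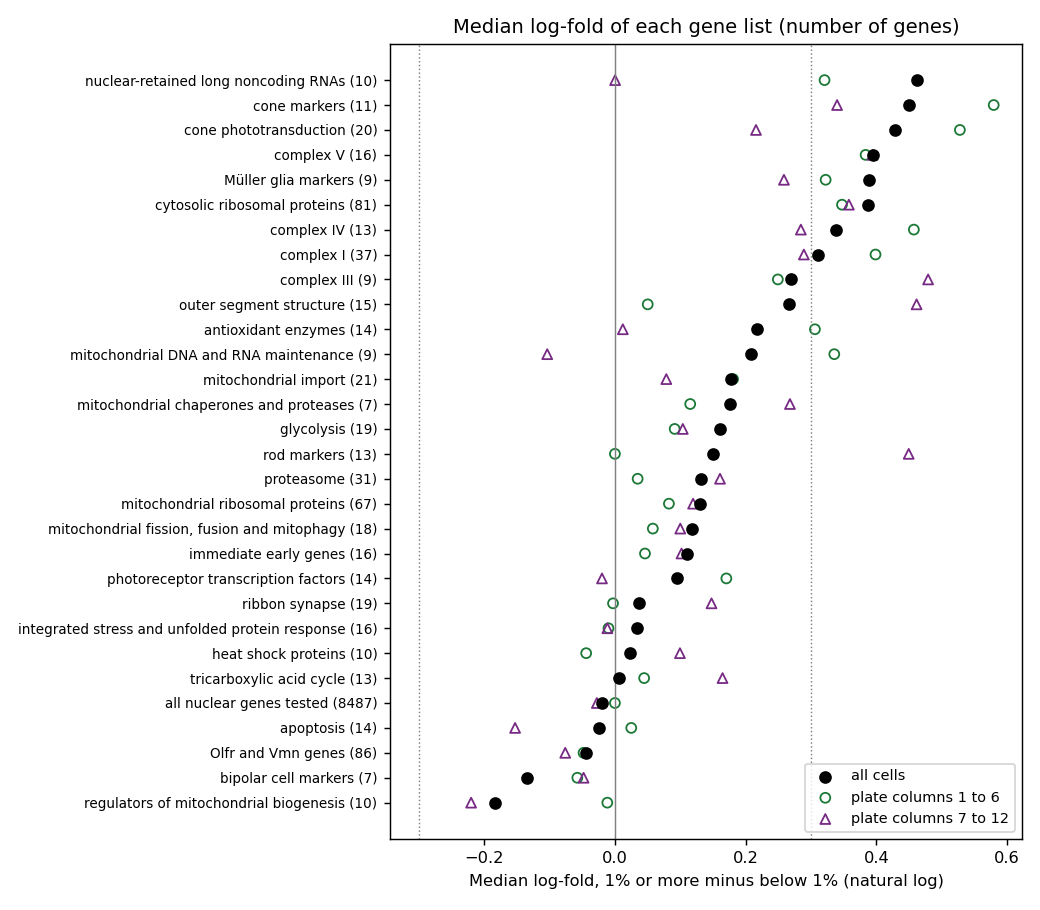
Median log-fold (natural log, cells with 1% or more minus cells below 1%) of each gene list with at least 6 tested genes, for all cells (black) and within plate columns 1 to 6 (green circles) and 7 to 12 (purple triangles), with dotted lines at -0.3 and 0.3. Cytosolic ribosomal proteins lie at 0.39, 0.35 and 0.36, while nuclear-retained long noncoding RNAs fall from 0.46 to 0.00029 in columns 7 to 12.

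Across finer bins of the mitochondrial share the lists did not follow 1 course. Ribosomal proteins had medians of 2.0% of nuclear counts in the 17 cells below 0.5%, 2.59% in 25 cells from 0.5% to 1%, 5.46% in 26 cells from 1% to 2%, 5.03% in 14 cells from 2% to 5% and 7.62% in the 3 cells over 5%. Respiratory complexes had medians of 1.85%, 2.97%, 4.65%, 4.39% and 6.38% in the same order. From 1% to 5% neither list rose further. The respiratory complexes rose between the first bins (1.85% to 2.97%) as well as across 1% (2.97% to 4.65%). Cone phototransduction had 1.27%, 1.64%, 2.87%, 2.66% and 1.75%, and the 3 cells left out by the filter had 5.17%, 1.75% and 0.841%. *Gapdh* peaked in the middle, with medians of 1.72, 4.26, 6.81, 4.72 and 0.826 per 10000. *Opn1sw* had medians of 26, 39.4, 23.3, 20.1 and 60.8 per 10000 and followed no order. The last bin holds 3 cells and its values are only those of these cells.

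**Figure D4:**
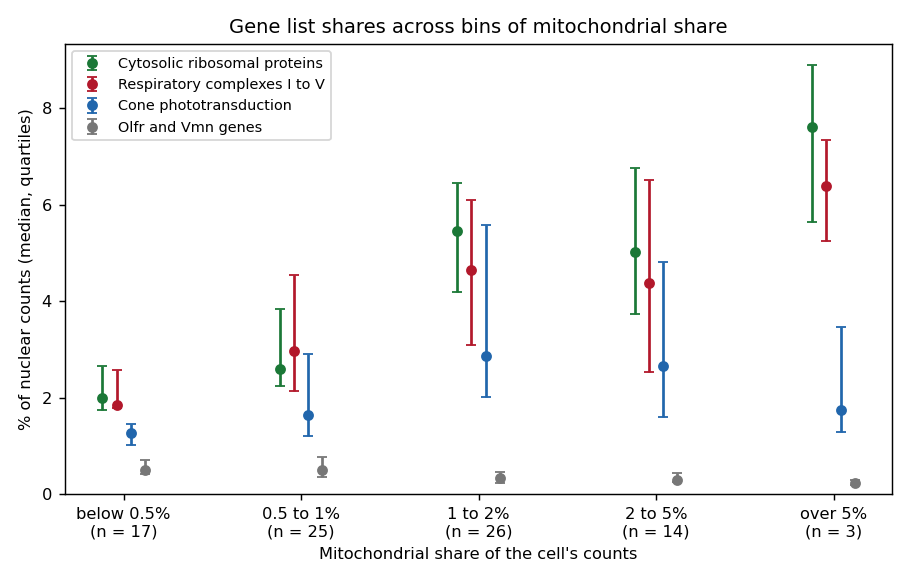
Share of nuclear counts (percent) on 4 gene lists in 5 bins of the mitochondrial share, with points at the median over cells and bars from the first to the third quartile. Ribosomal proteins go from 2.0% to 2.59% and 5.46% over the first 3 bins and respiratory complexes from 1.85% to 2.97% and 4.65%, and the last bin holds 3 cells.

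The single genes with the largest log-folds were mostly set by few cells. By a fixed rule, the 12 highest and 12 lowest were taken from the 1910 genes that were detected in 25% of the cells of a group and kept 1 sign within both plate sides. Those named here are, among the highest, *Irs2*, *Apoe*, *Serpinb5*, *Dlk1*, *Clstn2*, *Itpr2*, *Pde6g*, *Cst3*, *Unc79*, *Hsbp1* and *Prss43*, and, among the lowest, *Magi1*, *Rora*, *Gm43657*, *Birc6*, *Gm28518*, *Fam129c*, *Gm47127*, *Rbm10*, *1700095B10Rik*, *Nob1*, *Lsm1* and *Il18*. All 24 kept over 0.3 log-fold without their highest cells, but in 9 of the 12 highest and 6 of the 12 lowest over 50% of the level of the higher group came from 1 cell. The median over cells was higher in the cells with 1% or more for 6 of the 12 highest, and lower for 11 of the 12 lowest.

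*Irs2*, an adaptor of the insulin receptor, had the highest log-fold, 1.97, with means of 14 and 1.10 per 10000, but its medians were 0.244 (0 to 277) and 0.541 (0 to 6.17), and 49.2% of the level came from 1 cell. *Apoe*, a lipid carrier made by Müller glia, had a log-fold of 1.93 and medians of 1.19 (0 to 352) and 1.15 (0 to 8.50). The median of *Irs2* was thus lower in the cells with 1% or more, while the medians of *Apoe* were close. *Irs2* had a count in 55% of the cells with 1% or more and 76.2% of those below 1%. In both genes the highest cell was a cell with 1% or more. *Pde6g*, the inhibitory subunit of the rod phosphodiesterase, had the largest difference of medians among the 12 highest, at 10.7 (0 to 710) and 3.70 (0.381 to 51.0), and log-folds of 1.70 and 1.26 within the sides. Its cell at 710 per 10000 is the one that brought the rod marker share to 7.83%. With the limit at 2% the log-folds of *Irs2* and *Pde6g* turned to -1.67 and -0.42.

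Among the lowest, *Birc6*, an inhibitor of apoptosis of very large size, differed in the typical cell, with medians of 0.273 (0 to 16.2) and 2.87 (0 to 308) and a log-fold of -1.94. *Rora*, a nuclear receptor, had medians of 1.46 (0 to 9.99) and 4.03 (0 to 574) and a difference of -2.05 on the log scale. *Magi1*, a scaffold of cell junctions, had the lowest value, -2.15, and medians of 2.48 (0 to 11.7) and 3.24 (0 to 529). *Lsm1*, of the complex that starts mRNA decapping, had 0.244 (0 to 8.07) and 1.05 (0 to 107). In these 4 genes the highest cell was a cell below 1%. With the limit at 0.5% the log-folds of *Rora*, *Magi1* and *Lsm1* turned to 1.42, 1.35 and 0.71.

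**Figure D5:**
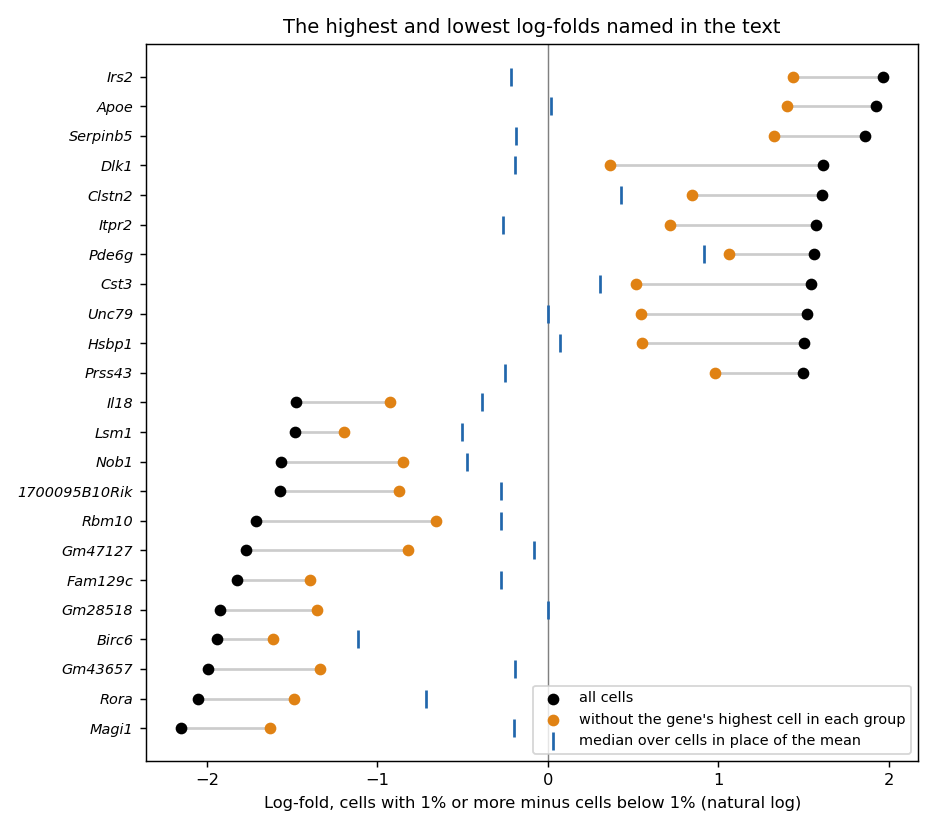
Log-folds (natural log) of the highest and lowest genes named in the text over all cells (black), without each gene's highest cell in each group (orange), and from the median over cells in place of the mean (blue tick). Each gene shown keeps its sign without the highest cells, at 0.36 for *Dlk1* and -0.66 for *Rbm10*, while the values from the medians lie nearer to 0 in each gene. From the medians the sign turns in *Irs2* (-0.21), *Serpinb5* (-0.19), *Dlk1* (-0.19), *Itpr2* (-0.26) and *Prss43* (-0.25), and the value is 0 in *Unc79* and *Gm28518*.

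A pair of abundant genes was lower in the median cell and held, with overlap of the groups. *7420701I03Rik*, a long noncoding RNA at chr12:11047813-11078742 on the plus strand (GRCm38), had a median of 138 per 10000 (78.5 to 250) in the cells with 1% or more and 211 (106 to 5425) in the cells below 1%. Its log-fold was -1.08, with -1.23 and -0.95 within the sides, and its Spearman correlation with the mitochondrial share was -0.59. *Il18*, which encodes the cytokine interleukin 18, at chr9:50554827-50581840 on the plus strand (GRCm38), had medians of 66.7 (28.8 to 166) and 98.8 (52.7 to 5979). The log-fold was -1.48 and the correlation -0.44. All counts of a cell enter the total of its mitochondrial share, so high counts of either gene lower that share. The part of this in the log-folds and correlations of both genes was not tested. The middle 50% of the cells was 114 to 177 against 170 to 245 for *7420701I03Rik* and 50.6 to 78.9 against 73.0 to 106 for *Il18*. *Pcdhb13*, a protocadherin, had medians of 280 (130 to 1473) and 382 (141 to 1511) and a log-fold of -0.29. Both *Il18* and *7420701I03Rik* had extreme cells below 1%. In 2 of these, at 0.159% and 0.714% mitochondrial counts, *Il18* took 59.8% and 34.1% of the nuclear counts, and in 2 others, at 0.106% and 0.408%, *7420701I03Rik* took 54.3% and 48.0%. The 1 cell with 1% or more in which a single gene passed 20% was at 2.25%, with *Zfp790* at 24.6%. Without these 5 cells, 1376 genes were higher and 1192 lower. Of the 1390 higher and 1054 lower with all cells, 1313 and 1003 stayed beyond 0.3 log-fold in the same direction.

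*Il18* overlaps *Bco2* and *Tex12* on the opposite strand, *Pde6h* overlaps *Arhgdib*, *Gngt2* overlaps *Abi3*, and *Gapdh* overlaps *Iffo1*. Whether reads were counted by strand is not given in the sources used here, so reads in the overlap of these pairs cannot be told apart. For *Pde6h* the overlap is that of the GENCODE gene, which starts upstream of the RefSeq start used for its promoter.

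The mitochondrial RNA itself differed in make-up and not only in amount, which is given as a description since these counts set the groups. In cells with at least 20 mitochondrial counts (37 and 32), *mt-Nd1*, a complex I subunit, took a median of 22.3% of the mitochondrial counts at 1% or more and 14.3% below 1%. *mt-Atp6*, an ATP synthase subunit, took 6.15% and 14.1%, and *mt-Atp8*, whose frame overlaps that of *mt-Atp6*, took 3.83% and 8.66%. *mt-Co2*, of cytochrome c oxidase, took 1.59% and 4.65%. *mt-Nd3* and *mt-Nd4l* took 0.565% and 0.580% at 1% or more and 4.08% and 2.63% below 1%. The medians of these 6 genes had the same direction within both plate sides. On summed counts in columns 1 to 6, *mt-Nd1* went the other way (16.5% at 1% or more, 23.8% below), as did *mt-Nd3* (2.81% and 2.57%). *mt-Cytb*, of complex III, had 4.55% and 3.25% over all cells and 2.27% and 3.60% in columns 1 to 6.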

How the data were processed

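Single GFP-positive cells were sequenced from uninjected and GSK-J4-treated retinae, in 1 library and 1 plate each. The deposited table holds raw counts, whole numbers that were not normalized, with 17774 genes as rows and 151 cells as columns. The authors aligned the reads in the CLC Genomics Workbench, removed PCR duplicates by UMI and mapping position, counted with featureCounts and added the counts of both transcript ends, so that 1 transcript may count at each end. The submitters' processing notes name the genome as GRCh38, a human build, and coordinates given here are from GENCODE on GRCm38. The filter of the study (200 genes, 5% mitochondrial counts, genes counted in 3 cells) left 15947 genes, 15934 of them nuclear. Batch correction, named in the study's methods, was not applied, and no doublet caller was run. Depth was 861 to 98441 counts per uninjected cell. Levels were computed in Python 3.11.15 (numpy 2.4.6, pandas 2.3.3, scipy 1.17.1) and figures drawn in matplotlib 3.10.9. The calculation was tested on simulated data. Intervals are Clopper-Pearson at 95%. For thinning, 1387 nuclear counts were drawn from each cell, which left out 4 cells of each group. The genes named are the 12 highest and 12 lowest log-folds, the 4 of highest level in a list, and the mitochondrial genes. Others, such as held members, were chosen after their values were seen. The groups, lists and alternatives were chosen with earlier results of these data known. A list of 13 nuclear pseudogenes of mitochondrial genes had no tested member. Cells of the 2 plates shared 57 well positions. Some genes that the rule names are not reported here.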

Additional observations from a re-analysis of the deposited data

How the results depend on the processing

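No paired analysis was possible because each condition is 1 library and the labels give no shared replicate numbers. The cause of each change below was not tested. At a limit of 2% (14 cells against 68), 1266 genes were higher and 1669 lower, and the higher genes fell from 56.9% to 43.1% of those called. Thinning to 1387 counts left 2225 genes tested, 790 higher and 674 lower. These are a larger part of the genes tested than the 28.8% of 8487 called with all counts. Of the same 8487 genes, a pseudocount of 0.1 gave 2925 higher and 3332 lower, with 46.7% of the called genes higher. Leaving out the highest cell of each gene gave 585 and 621 of 8487. At the 2% limit the median log-fold was -0.0011 for complex III, 0.14 for complex IV, -0.095 for mitochondrial ribosomal proteins, -0.28 for mitochondrial DNA and RNA maintenance, 0.20 for cytosolic ribosomal proteins, -0.032 for immediate early genes, -0.43 for nuclear-retained long noncoding RNAs, -0.10 for cone phototransduction, -0.32 for photoreceptor transcription factors, -0.17 for outer segment structure and -0.13 for rod markers. With the pseudocount of 0.1 it was 0.28 for mitochondrial ribosomal proteins, 0.56 for import, -0.85 for biogenesis regulators, 0.41 for fission, fusion and mitophagy, 0.54 for cytosolic ribosomal proteins, 0.45 for immediate early genes, 0.61 for outer segment structure, -0.21 for olfactory and vomeronasal receptors, 1.0 for Müller glia markers and -0.52 for bipolar cell markers. Complex IV had 0.23 without the highest cells and immediate early genes 0.0044 after thinning. Olfactory and vomeronasal receptors had -0.018 on summed counts, -0.017 after thinning and -0.084 without the 18 cells near the limit. Maintenance of mitochondrial DNA and RNA had -0.10 in columns 7 to 12, and in columns 1 to 6 biogenesis regulators had -0.012 and rod markers 0. Müller glia markers took 0.312% of the counts at 1% or more after thinning.

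Single genes changed sign at the 2% limit for *Irs2* (-1.67), *Serpinb5* (-1.13), *Pde6g* (-0.42), *Unc79* (-0.097), *Hsbp1* (-0.68), *Prss43* (-1.35), *Uqcr10* (-0.0011), *Cox6c* (-0.24), *Crx* (-0.30), *Malat1* (-0.12), *Atf4* (-0.92), *Cngb3* (-0.029), *Pdc* (-0.13) and *Pde6c* (0.0078). At a limit of 0.5% (65 cells against 17) they did for *Magi1* (1.35), *Rora* (1.42), *Gm28518* (1.53), *Fam129c* (1.14), *Rbm10* (1.14), *1700095B10Rik* (1.14), *Lsm1* (0.71), *Ldhb* (0.10), *Bad* (0.21), *Vdac1* (0.18) and *Pde6c* (0.47). *Pde6c* also had 0.20 in columns 1 to 6, 0.043 without the highest cells and 0.15 without cells near the limit. *Rbm10* had 0.43 after thinning, *Uqcr10* -0.11 among cells with at least 500 genes, and *Prdx2* -0.20 on summed counts and -0.22 with median-ratio size factors. In columns 7 to 12 *Tpi1* had -0.053 and *Atf4* -0.074.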

Other observations

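Transcript length moved with the direction of the difference. Of 8487 tested genes 8417 had a length. Among 452 genes whose longest transcript had up to 1000 bases, 33.4% were higher in the cells with 1% or more and 10.8% lower, and among 3630 genes over 4000 bases 11.3% were higher and 13.7% lower. Without ribosomal protein and respiratory chain genes, 27.8% of the 381 shortest genes and 11.1% of the 3624 longest were higher. Across genes, which are not replicates, the Spearman correlation of length and log-fold was -0.15. Ribosomal protein genes and many respiratory chain genes have short transcripts, and the part of length in their difference was not tested.

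In the GSK-J4-treated library, which was not compared above, 66 cells were deposited and 64 passed the filter. The mitochondrial share had a median of 0.0145% and a highest value of 2.47%, with no mitochondrial count in 31 cells and 1% or more in 3 cells. The same division of cells was therefore not made there.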
